A study of Mus musculus with 16 samples.

Results

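The genes described here encode the nuclear-encoded subunits of the 5 complexes of oxidative phosphorylation, measured by RNA sequencing of mouse pancreatic islets. They were chosen by gene symbol alone, as the Nduf genes of complex I, Sdha to Sdhd of complex II, the Uqcr genes and Cyc1 of complex III, the Cox4 to Cox8 genes of complex IV and the Atp5 genes of complex V. Of 16815 genes listed in both expression tables, 90 fitted this rule, namely 43 of complex I, 4 of complex II, 9 of complex III, 17 of complex IV and 17 of complex V. In both tables, 86 of the 90 had a mean of at least 0.5 FPKM (fragments per kilobase of transcript and per unit of library size, a level corrected for gene length) and were tested. The other 4, Ndufb4c, Cox6b2, Cox7b2 and Cox8b, reached at most 1.18 FPKM in any library. Ndufb4b, Ndufb4c, Ndufs6b and Ndufab1-ps are near-identical copies of other members, so that reads may be shared between them and their values are uncertain. Of these copies, Ndufb4c, Ndufs6b and Ndufab1-ps are annotated as processed pseudogenes and are counted with complex I by their symbols alone. Ndufa4 and its relative Ndufa4l2 are counted with complex I by their symbols, although the Ndufa4 protein is now placed with cytochrome c oxidase.

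Oxidative phosphorylation makes most of the ATP of a β cell. Complexes I and II pass electrons from NADH and succinate to ubiquinone, complex III passes them to cytochrome c and complex IV to oxygen, and complex V, the ATP synthase, uses the resulting proton gradient to make ATP. In β cells the ATP made from glucose closes potassium channels and so triggers insulin release. The core subunits carry the redox centres or the catalytic sites, and many small accessory subunits surround them. A search by symbol found none of the subunits encoded by mitochondrial DNA in either expression table, so they were not analysed here.

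The 16 libraries fell into 4 groups of 4. Flox mice carried loxP sites around exon 2 of Vtcn1, the gene of the immune checkpoint protein B7-H4, and by their labels no Cre, and B7-H4 cKO mice were Rip-Cre; B7-H4 fl/fl, with Cre recombinase driven by the insulin II promoter. Both groups had a C57BL/6J background and a normal chow diet, and their age was not given in the sources used here. The presence of Cre and the loss of the floxed exon cannot be told apart in this design. The other groups were mice started on a high-fat diet (HFD) at 6 weeks of age, kept on it for 8 weeks and then infused through the pancreatic duct with AAV2/8-Ctrl (Ctrl) or with AAV2/8-Ins2-B7-H4 (OE), a virus that carries B7-H4 and ZsGreen under the insulin II promoter, and islets were taken 5 weeks later. The design text of the series calls the HFD-fed mice wild type, whereas the methods of the study call them Flox. Nothing says whether the 4 samples of a group came from separate animals, so that p-values measure the spread between these samples.

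The targeted gene checked the virus but not the deletion. Vtcn1 lay between 40.0 and 128 FPKM in the OE libraries and between 0.064 and 0.371 FPKM in the Ctrl libraries. It was at 0.216 FPKM or less in all Flox and cKO libraries, so that a difference was not detectable there. The library labelled Flox16 stood apart, since Tph1, the enzyme that begins serotonin synthesis, was at 112 FPKM in it, at 116 to 150 FPKM in the cKO libraries and at 0.0885 FPKM or less in the other Flox libraries. Whether that library came from a mouse with Rip-Cre or carries a wrong label was not tested, and its group was kept as labelled. The library labelled Flox17 held the intestinal genes Clca1 and Mptx1 at 8.09 and 15.9 FPKM, and both were listed at 0 in the other libraries of its table. Acinar RNA differed most. The 25 acinar markers made up 28.8% of the summed FPKM in Flox16, 37.0% in Flox17, 11.2% in Flox20 and 7.77% in Flox21, and 37.8 to 48.0% in the cKO libraries. They made up 5.76% in Ctrl1, 60.0% in Ctrl2, 78.4% in Ctrl3 and 2.27% in Ctrl5, and 11.6 to 15.1% in the OE libraries. The 10 β-cell markers made up 25.8 to 54.7% in the Flox and cKO libraries and 4.38 to 55.1% in the Ctrl and OE libraries. Read numbers were unknown, and the relative depth of a library within its table was between 0.841 and 1.08.

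Subunit genes of all 5 complexes were well expressed in these islets. Over the 16 libraries, whose 2 tables were normalised apart, the median of the members' mean level was 49.3 FPKM. The β subunit of the ATP synthase, Atp5b, had the highest mean level at 227 FPKM, followed by Cox8a, a small membrane subunit of cytochrome c oxidase, at 212 FPKM and by Atp5a1, the α subunit of the ATP synthase, at 180 FPKM. The highest mean level was 119 FPKM in complex I (Ndufa4), 65.5 FPKM in complex II (Sdha) and 92.8 FPKM in complex III (Uqcrh, the hinge protein). Of the 90 genes, 10 had a mean level under 5 FPKM, and these were the 4 untested genes, the copies Ndufb4b, Ndufs6b and Ndufab1-ps, and the isoform genes Ndufa4l2, Cox4i2 and Cox7a1.

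Together the tested members made up between 0.355% (Ctrl3) and 1.10% (Ctrl5) of the summed FPKM of a library. Their share was 0.815% ± 0.135 (SD, n = 4) in Flox, 0.634% ± 0.0309 (SD, n = 4) in cKO, 0.707% ± 0.348 (SD, n = 4) in Ctrl and 0.866% ± 0.0332 (SD, n = 4) in OE. The share was lowest in the libraries with most acinar RNA. Outside the acinar markers and the insulin genes Ins1 and Ins2, a denominator chosen after the shares were seen, the members held between 1.77% (Ctrl5) and 2.24% (Flox20) of the remaining FPKM. The highest share was then 1.26 times the lowest, against 3.08 times for the share of all FPKM. In this remainder the share was 2.17% ± 0.0617 (SD, n = 4) in Flox and 2.15% ± 0.0590 (SD, n = 4) in cKO, and 1.99% ± 0.150 (SD, n = 4) in Ctrl and 2.04% ± 0.0426 (SD, n = 4) in OE, and the groups overlapped within each table. With the acinar markers alone left out, the highest share was 1.73 times the lowest, and the order of the groups turned, with 1.04% ± 0.0701 (SD, n = 4) in Flox, 1.15% ± 0.0480 (SD, n = 4) in cKO, 1.23% ± 0.296 (SD, n = 4) in Ctrl and 0.997% ± 0.0329 (SD, n = 4) in OE. In bulk islets, fewer cells of a type and less RNA per cell cannot be told apart.

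**Figure D1:**
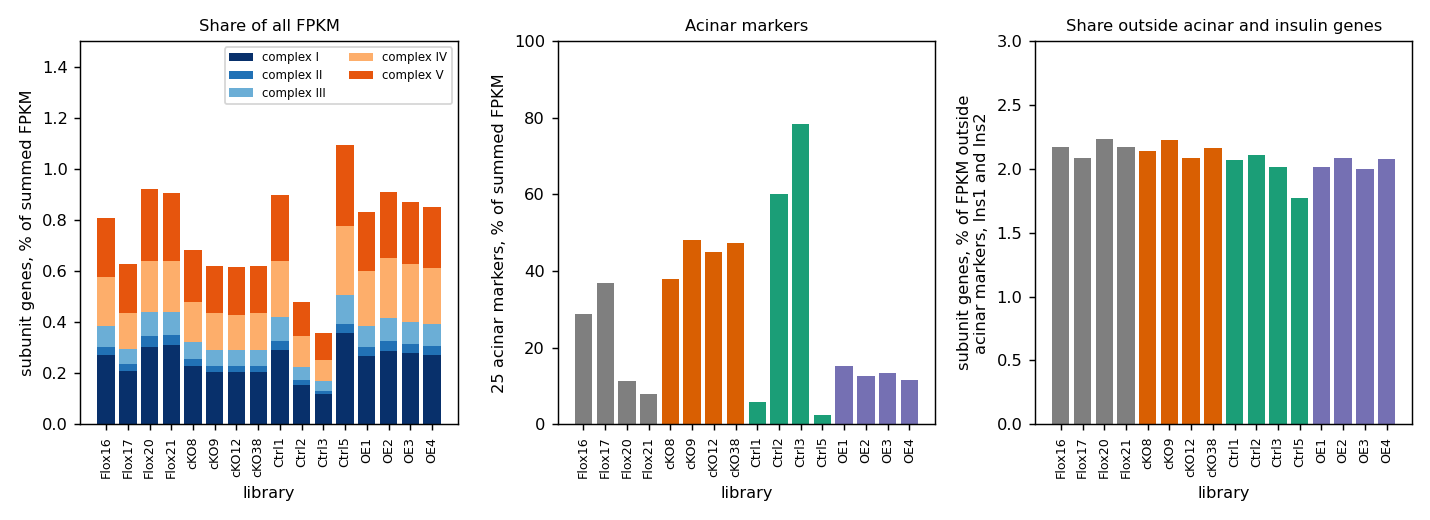
The left panel shows the share of summed FPKM held by the tested subunit genes of each complex in each of 16 libraries, the middle panel the share of 25 acinar markers, and the right panel the share of the subunit genes in the FPKM that remain without acinar markers, Ins1 and Ins2 (all in %, bars coloured by group in the last 2 panels). The left bars run from 0.355% in Ctrl3 to 1.10% in Ctrl5, while the right bars stay between 1.77% and 2.24%.

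The complexes kept the same order by their share of the members' FPKM in all libraries. Complex I genes supplied 31.6 to 34.1% of the members' summed FPKM over the 16 libraries, complex II genes 2.95 to 4.63%, complex III genes 9.77 to 11.8%, complex IV genes 21.8 to 25.9% and complex V genes 27.8 to 30.6%. Complex II supplied the smallest share in Ctrl3, the library with most acinar RNA. Complex IV supplied 24.5% ± 0.993 (SD, n = 4) in Ctrl and 25.8% ± 0.0732 (SD, n = 4) in OE, and each OE library lay above each Ctrl library. Complex II supplied 3.45% ± 0.391 (SD, n = 4) in Ctrl and 4.21% ± 0.0929 (SD, n = 4) in OE, again without overlap. Complex III supplied 10.8% ± 0.672 (SD, n = 4) in Ctrl and 9.99% ± 0.206 (SD, n = 4) in OE, and here each OE library lay below each Ctrl library. Complexes I and V overlapped between Ctrl and OE, and every complex overlapped between Flox and cKO. The proportions of a library sum to a whole and so are not independent. These proportions were described and not tested.

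Deletion of B7-H4 was asked about first, with the 4 cKO libraries set against the 4 Flox libraries. In cKO, 7 of 86 subunit genes fell at an adjusted p under 0.05 and none rose, a share of 8.14%, beside 13.8% of the 11804 genes tested (12.8% lower, 1.02% higher). The 7 were Ndufc2, Ndufab1 and Ndufb1 of complex I, Sdha and Sdhd of complex II, Uqcrc2 of complex III and Cox8a of complex IV, and no gene of complex V passed. The median log2 fold change was -0.26 over the members and -0.34 over all genes, so the subunit genes lay 0.079 above the median gene, and 57 of 86 lay above it. By complex the median was -0.28 for complex I, -0.38 for complex II, -0.25 for complex III, -0.24 for complex IV and -0.26 for complex V. All 42 tested genes of complex I and all 4 of complex II had a negative log2 fold change, as did 82 of 86 members against 86.9% of all genes, and after median-of-ratios scaling, which shifts the median of all genes up by 0.34, 67 members had a positive one and their median was 0.11. In 24 members every cKO library lay below every Flox library, a share of 27.9% beside 15.4% of all genes, and in none above (1.32%). At an unadjusted p under 0.05, 28 members were lower and none higher, beside 38.3% and 3.12% of all genes. No member passed with a fold minimum of 1 on the log2 scale, which 1.31% of all genes did.

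**Figure D2:**
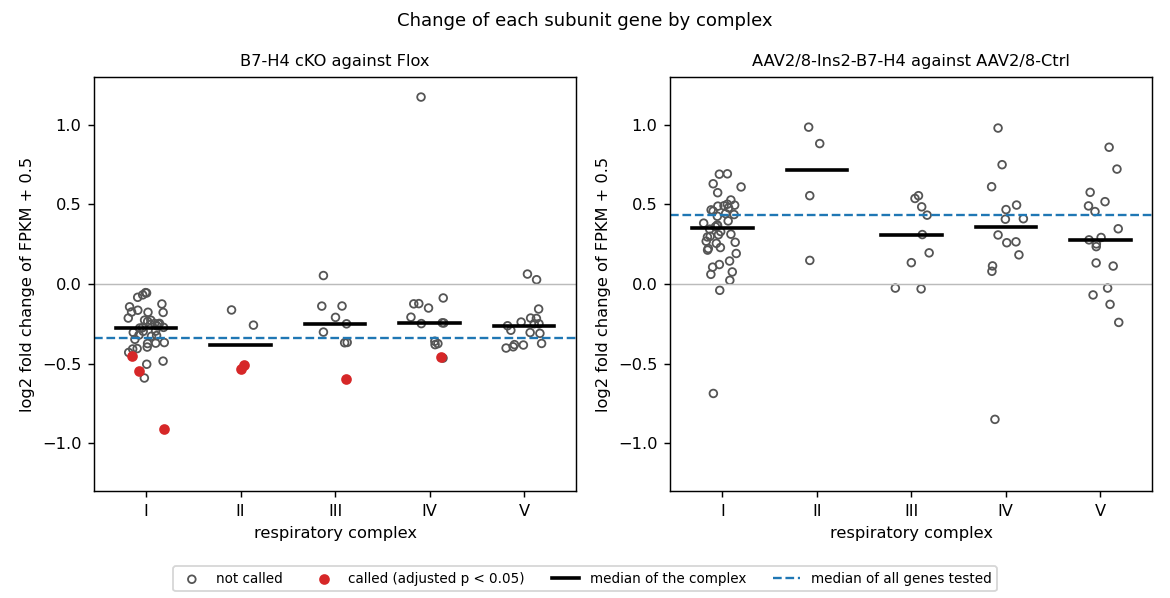
Each circle is the log2 fold change of 1 tested subunit gene on the log2(FPKM + 0.5) scale, by respiratory complex, for cKO against Flox (left) and OE against Ctrl (right), with black bars at the median of each complex, red circles for called genes and a dashed line at the median of all genes tested. In the left panel the 7 called genes lie below the dashed line at -0.34, and in the right panel none is called and 77 of 86 circles lie above 0, with the dashed line at 0.44.

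The largest drop was that of Ndufc2, an accessory subunit of the membrane arm of complex I, on chromosome 7 (97400003 to 97407802, plus strand, mm10). It was at 52.8 FPKM in Flox16, 55.9 in Flox17, 92.4 in Flox20 and 94.4 in Flox21, and at 39.8 FPKM in cKO8, 39.2 in cKO9, 36.9 in cKO12 and 35.0 in cKO38. All cKO libraries lay below all Flox libraries, and Flox20 and Flox21 lay far above the other Flox libraries. The log2 fold change was -0.91 ± 0.19 (SE; limma, adjusted p = 0.015). After median-of-ratios scaling it was -0.53 (adjusted p = 0.054), with the acinar share as a covariate -0.37 (adjusted p = 0.73), and relative to the mean of the members -0.64 (adjusted p = 0.056).

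Both called genes of complex II fell with Flox20 and Flox21 again highest. Sdha, the flavoprotein that oxidises succinate, was at 68.4, 57.4, 92.9 and 93.6 FPKM in Flox16, Flox17, Flox20 and Flox21, against 59.8, 50.1, 54.6 and 50.2 FPKM in cKO8, cKO9, cKO12 and cKO38. Here cKO8 lay above Flox17, and the log2 fold change was -0.51 ± 0.17 (SE; limma, adjusted p = 0.049). Sdhd, a membrane anchor of the complex, was at 57.4, 51.3, 84.7 and 80.7 FPKM in the Flox libraries and at 46.3, 47.8, 46.4 and 44.2 FPKM in the cKO libraries, in the same order. Its groups did not overlap, and its log2 fold change was -0.53 ± 0.17 (SE; limma, adjusted p = 0.044). The other genes of the complex did not pass. The iron-sulphur subunit Sdhb had a log2 fold change of -0.16 (limma, adjusted p = 0.40), and the anchor Sdhc one of -0.26 (limma, adjusted p = 0.21).

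Of the others called, Uqcrc2, a core protein of complex III, was at 53.7, 43.2, 74.0 and 71.7 FPKM in Flox16, Flox17, Flox20 and Flox21, against 37.2, 39.4, 37.7 and 42.0 FPKM in cKO8, cKO9, cKO12 and cKO38. The groups did not overlap, and the log2 fold change was -0.60 ± 0.18 (SE; limma, adjusted p = 0.036). Cox8a was at 202, 174, 248 and 255 FPKM in the Flox libraries and at 175, 146, 154 and 158 FPKM in the cKO libraries. Flox17 and cKO8 overlapped, and the log2 fold change was -0.46 ± 0.14 (SE; limma, adjusted p = 0.041). Ndufb1, a small accessory subunit of complex I, was at 92.1, 83.3, 102 and 95.1 FPKM in Flox and at 76.3, 59.8, 67.2 and 69.2 FPKM in cKO, a log2 fold change of -0.45 ± 0.14 (SE; limma, adjusted p = 0.044). Ndufab1, the mitochondrial acyl carrier protein that is also a complex I subunit, was at 13.1, 12.2, 16.6 and 15.7 FPKM in Flox and at 10.8, 8.68, 9.36 and 9.71 FPKM in cKO, a log2 fold change of -0.55 ± 0.18 (SE; limma, adjusted p = 0.044). Neither of these complex I genes overlapped between groups.

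**Figure D3:**
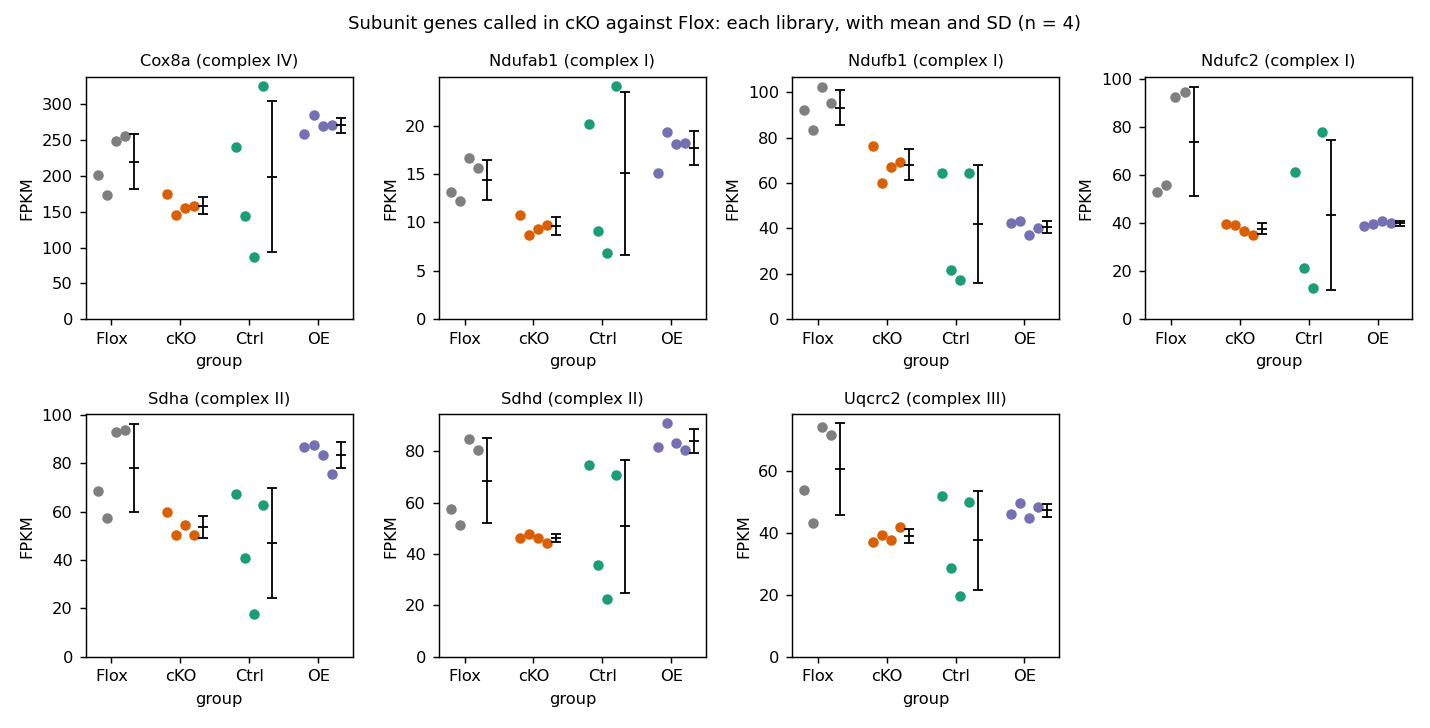
Each panel shows the FPKM of 1 of the 7 called genes in each library of the 4 groups, with the mean and SD of the group (n = 4) as a black bar. The cKO libraries lie close together and below the Flox libraries, except that cKO8 lies above Flox17 for Sdha and Cox8a. Flox20 and Flox21 lie high among the Flox libraries, and the Ctrl libraries are split, with Ctrl1 and Ctrl5 above Ctrl2 and Ctrl3.

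The count depended on single libraries and on scaling. It was 64 without Flox17 (60% of all genes called) and 9 without Flox16 (24.2%), namely the 7 with Ndufs1 and Atp5a1, and 70 without both (74.5%), where 69 were lower and Cox6a2 was higher. It was 4 without cKO8 (13.8%), 1, namely Ndufc2, without Flox20 (1.16%), Flox21 (1.21%), cKO12 (3.09%) or cKO38 (0.751%), and 0 without cKO9 (0.161%). With the 3 libraries per group of the study's figures it was 66, beside 66.1% of all genes. After median-of-ratios scaling (2.38% of all genes called) and with the acinar share as a covariate (none called) it was 0. Flox20 and Flox21, the Flox libraries with the lowest acinar share, were the highest pair of all 8 libraries in 61 of 86 members (70.9%) and in 60.5% of all genes. All 25 acinar markers had a positive log2 fold change in cKO, with a median of 1.42, and none passed the test. The acinar share was 7.77 to 37.0% in Flox and 37.8 to 48.0% in cKO, without overlap. Group and acinar share thus go together, and the fit with the covariate cannot tell them apart. The part of acinar RNA in these falls was not tested.

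Promoters of the called genes are shown for the letters known to be bound by regulators of mitochondrial genes. The reference table (RefSeq, GRCm38.p6, the build also called mm10) held a promoter for 71 of the 90 members and for 6 of the 7 called genes, all but Uqcrc2. The 150 bases before the start are printed 5′ to 3′ on the strand of the gene, in lower case, with capitals for matches on either strand to GCGCA, any base and GCGC (nuclear respiratory factor 1) and CCGGAAG (the ETS factors that include GABP). Sdha and Sdhd hold the former, Sdhd and Cox8a hold the latter, and Ndufc2, Ndufab1 and Ndufb1 hold neither. The match of Cox8a runs on past the start, where the printed stretch ends.
Sdha, chr13:74350241-74350390, minus strand: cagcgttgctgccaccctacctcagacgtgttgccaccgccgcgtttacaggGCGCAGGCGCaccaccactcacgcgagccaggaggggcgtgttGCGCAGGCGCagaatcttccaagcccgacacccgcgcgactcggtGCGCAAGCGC
Sdhd, chr9:50603850-50603999, minus strand: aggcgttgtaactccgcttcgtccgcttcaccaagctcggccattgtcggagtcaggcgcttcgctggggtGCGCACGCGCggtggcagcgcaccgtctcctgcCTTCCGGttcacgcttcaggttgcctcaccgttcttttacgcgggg
Cox8a, chr19:7217617-7217766, minus strand: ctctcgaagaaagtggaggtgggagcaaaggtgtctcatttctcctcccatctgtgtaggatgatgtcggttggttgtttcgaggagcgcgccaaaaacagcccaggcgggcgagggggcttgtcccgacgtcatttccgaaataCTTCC
Ndufc2, chr7:97399853-97400002, plus strand: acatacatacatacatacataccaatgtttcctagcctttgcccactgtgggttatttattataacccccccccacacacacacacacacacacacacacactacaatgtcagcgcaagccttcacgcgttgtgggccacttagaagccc
Ndufab1, chr7:122101849-122101998, minus strand: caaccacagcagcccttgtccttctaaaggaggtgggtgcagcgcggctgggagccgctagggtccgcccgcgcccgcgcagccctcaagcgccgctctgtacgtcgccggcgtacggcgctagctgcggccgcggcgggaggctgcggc
Ndufb1, chr12:101975739-101975888, minus strand: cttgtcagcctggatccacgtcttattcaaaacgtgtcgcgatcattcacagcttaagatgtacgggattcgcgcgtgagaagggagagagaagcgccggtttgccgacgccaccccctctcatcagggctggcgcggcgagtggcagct

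Over the whole promoter window, from 250 bases before to 50 after the start, the nuclear respiratory factor 1 motif was found in 17 of 71 members (23.9%), in 5.19% of all 27025 genes with a promoter and in 11.9% of those tested in the cKO and Flox table. CCGGAAG was found in 17 members (23.9%), against 9.93% of all genes and 20.3% of those tested. AAGATGGCG, letters of the YY1 site, was found in 7 members (9.86%), against 1.64% and 3.74%. GGGCGGG, the GC box, was found in 24 members (33.8%), against 27.9% and 53.2%, and CCAAT in 30 (42.3%), against 41.1% and 42.7%. TATAAA was found in 8 members (11.3%), against 15.7% and 8.73%. Both strands were searched, CCGGAAG and AAGATGGCG can overlap by their shared AAG, and a match describes these letters only.

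The other central subunits described here did not pass in cKO. In complex I, Ndufs1, which carries iron-sulphur clusters, was at 23.5, 22.0, 31.3 and 30.3 FPKM in Flox16, Flox17, Flox20 and Flox21, against 18.1, 17.5, 19.5 and 19.1 FPKM in cKO8, cKO9, cKO12 and cKO38. Its groups did not overlap, but its log2 fold change of -0.50 ± 0.17 (SE) missed the threshold (limma, adjusted p = 0.051). Ndufv1, which binds NADH, had a log2 fold change of -0.14 (limma, adjusted p = 0.47). In complex III, the log2 fold change was -0.30 for the Rieske protein gene Uqcrfs1 (limma, adjusted p = 0.14), -0.25 for Uqcrh (0.18), -0.14 for the core protein gene Uqcrc1 (0.48) and -0.21 for Cyc1, cytochrome c1 (0.33). In complex IV it was -0.12 for Cox4i1 (limma, adjusted p = 0.45) and -0.09 for Cox5a (0.69), subunits that surround the catalytic core.

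The ATP synthase showed the same small differences without a call. Atp5a1 was at 174, 159, 222 and 207 FPKM in Flox16, Flox17, Flox20 and Flox21, against 146, 141, 149 and 145 FPKM in cKO8, cKO9, cKO12 and cKO38. The groups did not overlap, and the log2 fold change was -0.37 ± 0.14 (SE; limma, adjusted p = 0.060). Atp5b was at 222, 200, 272 and 256 FPKM in Flox and at 197, 190, 196 and 188 FPKM in cKO, again without overlap, with a log2 fold change of -0.29 ± 0.13 (SE; limma, adjusted p = 0.10). In 7 of 17 genes of the complex every cKO library lay below every Flox library (41.2%, beside 15.4% of all genes), and the smallest adjusted p was 0.056. The gene of the ATP synthase inhibitor, Atpif1, which the symbol rule leaves out, was at 30.8 to 38.4 FPKM in Flox and at 22.8 to 26.5 FPKM in cKO, with a log2 fold change of -0.45 ± 0.16 (SE; limma, adjusted p = 0.058).

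The second comparison asked about overexpression of B7-H4 in HFD-fed mice, with the 4 OE libraries set against the 4 Ctrl libraries. No subunit gene passed the test (limma, smallest adjusted p = 0.59), beside 0.033% of the 12132 genes tested, that is 4 genes. At an unadjusted p under 0.05, 1 member was higher and none lower, beside 5.58% and 0.833% of all genes. The median log2 fold change was 0.34 over the members and 0.44 over all genes, and 77 of 86 members had a positive one, against 84.2% of all genes. Median-of-ratios scaling shifts the median of all genes down by 0.44, and the members' median was then -0.20, so the direction flips with it. By complex the median was 0.35 for complex I, 0.72 for complex II, 0.31 for complex III, 0.36 for complex IV and 0.28 for complex V. In 3 members, Sdha, Sdhd and Atp5a1, every OE library lay above every Ctrl library, a share of 3.49% beside 5.61% of all genes, and in none was it below (0.964% of all genes).

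The Ctrl libraries were split for most members. Ctrl2 and Ctrl3, the libraries with most acinar RNA, were the lowest pair of the 8 libraries in 77 of 86 members (89.5%) and in 85.7% of all genes. Sdha was at 67.3 FPKM in Ctrl1, 40.7 in Ctrl2, 17.6 in Ctrl3 and 62.6 in Ctrl5, and at 86.9, 87.4, 83.3 and 75.6 FPKM in OE1 to OE4. All OE libraries lay above all Ctrl libraries, and the log2 fold change was 0.99 ± 0.47 (SE; limma, adjusted p = 0.59), the largest of any member. Sdhd was at 74.5, 35.6, 22.4 and 70.7 FPKM in Ctrl1, Ctrl2, Ctrl3 and Ctrl5 and at 81.8, 90.9, 83.1 and 80.5 FPKM in OE. Its log2 fold change was 0.88 ± 0.46 (SE; limma, adjusted p = 0.59). Atp5a1 was at 193, 110, 70.6 and 204 FPKM in the same Ctrl libraries and at 231, 255, 241 and 237 FPKM in OE, with a log2 fold change of 0.86 ± 0.43 (SE; limma, adjusted p = 0.59).

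The other 5 genes that fell in cKO overlapped between OE and Ctrl. Ndufc2 was at 61.5, 21.5, 12.9 and 77.9 FPKM in Ctrl1, Ctrl2, Ctrl3 and Ctrl5 and at 38.7, 39.8, 40.9 and 40.2 FPKM in OE1 to OE4. The OE libraries lay between the pairs of Ctrl libraries, and the log2 fold change was 0.22 ± 0.52 (SE; limma, adjusted p = 0.81). Ndufb1 had the same split, with 64.6, 21.7, 17.4 and 64.5 FPKM in Ctrl and 42.5, 43.3, 37.1 and 40.0 FPKM in OE, a log2 fold change of 0.19 ± 0.49 (SE; limma, adjusted p = 0.83). Cox8a was at 240, 143, 86.6 and 325 FPKM in Ctrl and at 258 to 284 FPKM in OE, Uqcrc2 at 19.8 to 51.9 FPKM in Ctrl and at 44.9 to 49.7 FPKM in OE, and Ndufab1 at 20.2, 9.10, 6.84 and 24.1 FPKM in Ctrl and at 15.1 to 19.3 FPKM in OE. In each of these the OE libraries lay within the range of the Ctrl libraries.

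Without Ctrl2 and Ctrl3, which leaves 2 Ctrl libraries, 15 members passed, 14 lower and 1 (Sdha) higher, beside 24.3% of all genes called (21.9% lower, 2.44% higher). Ndufc2 then had a log2 fold change of -0.79 (limma, adjusted p = 0.0056) and Ndufb1 one of -0.66 (limma, adjusted p = 0.0062). With the acinar share as a covariate 18 members passed, 16 higher and 2 lower (Cox4i2 and Ndufa4l2), beside 15.4% of all genes called (13.1% higher, 2.24% lower). The sign of the members' median thus differed between these settings, at -0.11 and 0.28.

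The remaining central subunits overlapped between OE and Ctrl. The log2 fold change was 0.57 for Ndufs1 and 0.43 for Ndufv1 of complex I, with SEs of 0.49 and 0.43. It was 0.15 for Sdhb, which was at 35.9, 37.0, 35.1 and 54.7 FPKM in Ctrl1, Ctrl2, Ctrl3 and Ctrl5 and at 41.0 to 47.6 FPKM in OE. Ctrl2 and Ctrl3 were thus as high as Ctrl1 for Sdhb and well below it for Sdha and Sdhd. In complex III it was 0.54 for Uqcrc1, 0.56 for Uqcrfs1, 0.20 for Cyc1 and 0.13 for Uqcrh, and in complex IV 0.41 for Cox4i1 and 0.08 for Cox5a. Atp5b had a log2 fold change of 0.49 ± 0.40 (SE; limma, adjusted p = 0.60), and the inhibitor gene Atpif1, at 52.8, 18.9, 13.9 and 70.2 FPKM in Ctrl and 39.9 to 42.8 FPKM in OE, one of 0.39 ± 0.51 (SE; limma, adjusted p = 0.69).

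Some subunits have a restricted form beside the general one, and these forms varied most between libraries. Cox6a2, the heart and muscle form of a cytochrome c oxidase subunit, was at 96.0 FPKM in Flox16, 50.3 in Flox17, 10.1 in Flox20 and 13.0 in Flox21, and at 86.1, 67.9, 48.1 and 62.9 FPKM in cKO8, cKO9, cKO12 and cKO38. Flox16 and Flox17 lay within or above the cKO range and the other Flox libraries far below it, and the log2 fold change was 1.17 ± 0.77 (SE; limma, adjusted p = 0.265). It was -0.44 with the acinar share as a covariate. In the HFD-fed mice Cox6a2 was at 102, 61.8, 7.18 and 77.4 FPKM in Ctrl1, Ctrl2, Ctrl3 and Ctrl5 and at 92.2, 102, 82.9 and 72.3 FPKM in OE, with a log2 fold change of 0.98 ± 0.62 (SE; limma, adjusted p = 0.59). The general form Cox6a1 was between 117 and 152 FPKM in Flox and cKO and between 112 and 263 FPKM in Ctrl and OE. The log2 ratio of Cox6a2 to Cox6a1 was 1.33 higher in cKO than in Flox (exact permutation test, two-sided, adjusted p = 0.64 over 8 tests) and 0.48 higher in OE than in Ctrl (exact permutation test, adjusted p = 0.77).

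Of the 6 skeletal muscle markers, Ckm was at 0.443 FPKM or less in all 16 libraries and was not tested. In OE against Ctrl 2 others were tested, both with a positive log2 fold change (median 0.61, beside 0.44 over all genes). In 1 of them every OE library lay above every Ctrl library, as in 5.61% of all genes, and neither passed. In cKO against Flox 1 was tested, with a log2 fold change of -0.057, and did not pass. Together the muscle markers held at most 0.000507% of the summed FPKM of a library. Tph1 was high in the same Flox library as Cox6a2, but Flox17, the second highest for Cox6a2, had Tph1 at 0.0885 FPKM.

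Cox4i2, the lung form of cytochrome c oxidase subunit 4, was at 7.78 FPKM in Ctrl1, 0.327 in Ctrl2, 0.813 in Ctrl3 and 10.9 in Ctrl5, and at 1.18, 1.80, 1.49 and 0.753 FPKM in OE1 to OE4. Ndufa4l2, a relative of Ndufa4 known to be induced by hypoxia, was at 14.0, 1.88, 0.998 and 23.8 FPKM in the same Ctrl libraries and at 2.84, 3.34, 3.22 and 3.40 FPKM in OE. Both were highest in Ctrl1 and Ctrl5, and their groups overlapped. Ctrl1 and Ctrl5 were the highest pair of the 8 libraries in 30 of 86 members (34.9%) and in 40.2% of all genes. The log2 fold change was -0.85 ± 0.70 for Cox4i2 (SE; limma, adjusted p = 0.60) and -0.69 ± 0.70 for Ndufa4l2 (SE; limma, adjusted p = 0.63). With the acinar share as a covariate both passed, with adjusted p = 0.041 and 0.031. The pericyte marker Rgs5 was likewise highest in Ctrl1 and Ctrl5, at 92.7, 9.71, 7.49 and 109 FPKM in Ctrl1, Ctrl2, Ctrl3 and Ctrl5 and at 15.9 to 25.0 FPKM in OE. Pdgfrb, another pericyte marker, was at 11.8, 1.89, 1.32 and 17.2 FPKM in Ctrl and at 3.90 to 4.53 FPKM in OE. All 6 markers of stellate cells and pericytes had a negative log2 fold change in OE, with a median of -0.57, and none passed. Other cell types also had higher shares of the summed FPKM in a Ctrl library than in any OE library. Endothelial markers reached 0.0937% in Ctrl and 0.0321% in OE, and macrophage markers 0.0631% and 0.0130%. The α-cell markers reached 13.6% and 4.35%, and delta-cell markers 2.18% and 1.06%. In each of these the lowest share was also in Ctrl. Lymphocyte, intestinal and muscle markers had their highest share in OE. The part of these cell types in the isoform values was not tested.

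In the Flox and cKO libraries Cox4i2 stayed between 0.188 and 1.93 FPKM and Ndufa4l2 between 0.921 and 2.21 FPKM, and the groups overlapped. Cox7a1, the heart and muscle form of another subunit of cytochrome c oxidase, was at 1.04, 0.140, 1.57 and 1.36 FPKM in Flox16, Flox17, Flox20 and Flox21, against 0.521 to 0.647 FPKM in cKO, with a log2 fold change of -0.37 ± 0.31 (SE; limma, adjusted p = 0.34). Its general partner Cox7a2 was at 56.4 to 76.7 FPKM in Flox and 50.7 to 60.3 FPKM in cKO. None of the 8 isoform ratios passed, with adjusted p between 0.64 and 0.77 in exact permutation tests. The smallest possible p is 0.0286, and a single ratio at that p would have an adjusted p of 0.229, so that no ratio could have passed alone.

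**Figure D4:**
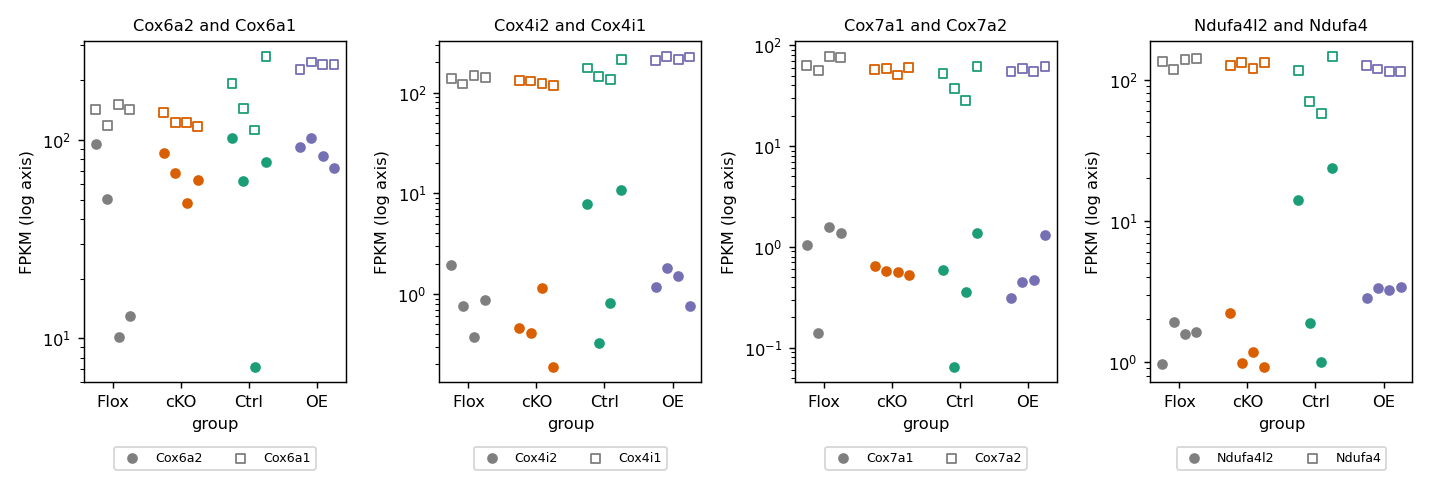
Each panel shows the FPKM of a restricted isoform gene (filled circles) and of its general partner (open squares) in each library of the 4 groups on a log axis. Cox6a2 spans 7.18 to 102 FPKM while Cox6a1 stays between 112 and 263 FPKM, and Cox4i2 and Ndufa4l2 are highest in Ctrl1 and Ctrl5. Within their table these 2 libraries are the highest pair in 40.2% of all genes.

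Genes that build and feed the respiratory chain were counted in the same tests. Over all genes tested in cKO against Flox, 12.8% were called lower, 86.9% had a negative log2 fold change and the median was -0.34. In cKO all 16 complex I assembly factors had a negative log2 fold change (median -0.39) and 1 passed, Ndufaf5, which fell by 0.72 on the log2 scale (limma, adjusted p = 0.036). All 31 assembly factors of complexes II to V were also negative (median -0.39) and 2 passed, Fmc1, an ATP synthase assembly factor that fell by 0.82 on the log2 scale (limma, adjusted p = 0.041), and Uqcc2, of complex III, by 0.66 (0.021). Of 10 genes for coenzyme Q and cytochrome c, 2 fell, Coq7 by 0.70 on the log2 scale (limma, adjusted p = 0.033) and Coq2 by 0.61 (0.049). Of 17 genes of pyruvate dehydrogenase and the citric acid cycle 3 fell, and fumarase, Fh1, changed most. It was at 37.7, 33.4, 68.1 and 86.0 FPKM in Flox16, Flox17, Flox20 and Flox21, against 23.9 to 28.2 FPKM in cKO, a log2 fold change of -0.99 ± 0.26 (SE; limma, adjusted p = 0.034). Dld and Sucla2 were the others, and fell by 0.60 and 0.55 on the log2 scale.

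Among 17 mitochondrial carriers and shuttle enzymes 1 fell, beside 12.8% of all genes. This was Gpd2, the mitochondrial enzyme of the glycerol phosphate shuttle. It was at 9.39, 8.86, 18.1 and 17.9 FPKM in Flox16, Flox17, Flox20 and Flox21, against 4.97 to 6.66 FPKM in cKO, a log2 fold change of -1.04 ± 0.23 (SE; limma, adjusted p = 0.017). None of 78 mitochondrial ribosomal protein genes passed (median -0.28), and of 82 cytosolic ones 1 did, Rps27, which fell by 0.57 on the log2 scale (median of the list -0.16). In OE against Ctrl no gene of these lists passed (limma), and the medians were 0.26 and 0.42 for the assembly factors of complex I and of the other complexes, 0.44 for coenzyme Q and cytochrome c, 0.52 for the citric acid cycle, 0.55 for the carriers, 0.27 for the mitochondrial ribosome and -0.01 for the cytosolic one. Over all genes the median was 0.44, and 0.033% passed.

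Of the known regulators of these genes, Lrpprc, which stabilises mitochondrial mRNA, fell in cKO by 0.75 on the log2 scale (limma, adjusted p = 0.033). It was 1 of 12 tested, beside 12.8% of all genes called lower. Nrf1 was at 0.912 to 1.76 FPKM in Flox and 0.934 to 1.22 FPKM in cKO, with a log2 fold change of -0.30 (limma, adjusted p = 0.22). Gabpa had one of -0.49 (limma, adjusted p = 0.069), the mitochondrial transcription factor gene Tfam one of -0.22 (0.36) and Esrra one of -0.21 (0.41). The coactivator gene Ppargc1a was at 0.438 FPKM or less in all 16 libraries and was not tested. In OE against Ctrl the log2 fold changes were 0.40 for Nrf1, 0.61 for Gabpa, 0.25 for Tfam and 0.09 for Esrra, and none of 12 passed.

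Markers of other islet cells also differed in the cKO libraries. Over all genes, 12.8% were called lower and 1.02% higher, and the median log2 fold change was -0.34. Of 10 β-cell markers 5 fell (median log2 fold change -0.43), among them Ucn3, by 1.08 on the log2 scale (limma, adjusted p = 0.027). Of 5 α-cell markers 2 fell, among them Ttr, by 1.02 on the log2 scale (limma, adjusted p = 0.018). Of 6 endothelial markers 4 fell, among them Pecam1, by 0.94 on the log2 scale (limma, adjusted p = 0.015), and of 6 markers of stellate cells and pericytes 2 fell, among them Dcn, by 1.28 (0.031). The single lymphocyte marker tested, Cd79a, fell by 1.20 on the log2 scale (limma, adjusted p = 0.014), and of 5 duct markers 1, Muc1, rose by 1.39 (0.023). None passed among 3 delta-cell, 6 macrophage, 2 adipocyte, 3 intestinal and 1 muscle marker tested. The medians were -0.28 for the α-cell and -0.31 for the macrophage markers, above that of all genes. Of the β-cell markers 2 had a positive log2 fold change, as did 1 α-cell marker. All 25 acinar markers had a positive one, with a median of 1.42, and none passed. The 7 subunit genes fell by 0.45 to 0.91 on the log2 scale, while 86.9% of all genes had a negative log2 fold change. The part of these cell types in the falls of the subunit genes was not tested.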

How the data were processed

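Islet RNA of 16 mouse samples, 4 in each of 4 groups, was sequenced on an Illumina NovaSeq instrument. The deposited values are FPKM per gene, which the authors computed for mm10 as the submitters' processing notes name it, in 1 table for Flox and cKO and another for Ctrl and OE. The aligner and the counter are not given in the sources used here. FPKM is a share of a library, so an abundant RNA lowers all other genes, and read numbers are unknown.

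Values were taken as log2(FPKM + 0.5), so that fold changes of low genes are understated. Each table was fitted with limma 3.58.1 in R 4.3.3 (moderated variances with a trend and robust fitting) on those genes whose mean reached 0.5 FPKM, with the Benjamini-Hochberg adjustment over every gene tested. Called means an adjusted p under 0.05. Log2 ratios of 4 isoform pairs were compared by exact permutation tests in 2 comparisons. The scripts were tested on simulated data.

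The members, the gene lists and the tests were chosen with earlier results of these data known. Named were the called members, the member with the highest level in each complex, the largest changes without overlap, fixed central subunits, isoform pairs and regulators, and the largest called change of each other list. Sdhc, Pdgfrb, Ckm and the further called genes of a list were named after their values were seen. Some named items are not reported here. Alternatives were other pseudocounts, minimum levels and scalings, an acinar covariate, the replicate block and leaving out libraries.

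Promoters came from RefSeq (GRCm38.p6) and gene positions from GENCODE annotation of GRCm38.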

Additional observations from a re-analysis of the deposited data

Results flagged for a closer look

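In 120 groups of 4 values the lowest or highest was tested for lying far from the others by Dixon's criterion, and 4 did, where chance gives about 1 in 20 groups, or about 6. The log2 ratio of Cox7a1 to Cox7a2 was -6.48 in Flox17 and between -5.37 and -5.22 in the other Flox libraries. The subunit genes held 0.681% of the summed FPKM in cKO8 and 0.615 to 0.621% in the other cKO libraries. Sdhb was at 54.7 FPKM in Ctrl5 and at 35.1 to 37.0 FPKM in the other Ctrl libraries. In OE4 Cox7a1 was at 1.32 FPKM against 0.312 to 0.472 FPKM in the other OE libraries.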

How the results depend on the processing

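For cKO against Flox the count of 7 subunit genes stayed between 5 and 9, beside 13.4 to 23.2% of all genes, with another pseudocount, a minimum of 1 FPKM, FPKM scaled to a common sum and the replicate block. It was 66 with the 3 libraries per group of the study's figures, 70 without Flox16 and Flox17 and 1 without trend and robust fitting (9.69% of all genes). It was 0 with the acinar share as a covariate and with no minimum mean, and under both settings no gene at all was called. After median-of-ratios scaling (2.38% of all genes) and relative to the mean of the members (0.822%) it was also 0. The same held with a fold minimum of 1 on the log2 scale (1.31%). For OE against Ctrl the count was 18 with the acinar covariate, 15 without Ctrl2 and Ctrl3 and 0 under all other settings. Leaving out 1 library at a time gave 0 to 64 genes for cKO and 0 to 0 for OE. The settings relative to the mean of the members and without 2 libraries were chosen after seeing the data.

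The median log2 fold changes for cKO against Flox were -0.41 for complex I, -0.55 for complex II, -0.36 for complex III, -0.35 for complex IV, -0.39 for complex V and -0.39 for all members with the study's 3 libraries, -0.070 for complex I, -0.028 for complex II, -0.13 for complex III, -0.00087 for complex IV, -0.061 for complex V and -0.070 for all members with the acinar covariate, -0.42 for complex I, -0.62 for complex II, -0.41 for complex III, -0.33 for complex IV, -0.42 for complex V and -0.42 for all members without Flox16 and Flox17, and 0.096 for complex I, -0.0028 for complex II, 0.13 for complex III, 0.14 for complex IV, 0.12 for complex V and 0.11 for all members after median-of-ratios scaling. For OE against Ctrl they were -0.12 for complex I, 0.11 for complex II, -0.093 for complex III, -0.073 for complex IV, -0.24 for complex V and -0.11 for all members without Ctrl2 and Ctrl3, and -0.18 for complex I, 0.17 for complex II, -0.24 for complex III, -0.15 for complex IV, -0.27 for complex V and -0.20 for all members after median-of-ratios scaling. Leaving out 1 library, the medians for cKO ran from -0.36 to -0.21 for all members, -0.37 to -0.23 for complex I, -0.51 to -0.30 for II, -0.34 to -0.21 for III, -0.34 to -0.17 for IV and -0.37 to -0.19 for V. For OE they ran from 0.14 to 0.56, 0.14 to 0.59, 0.35 to 0.96, 0.17 to 0.45, 0.14 to 0.53 and 0.016 to 0.51 in the same order. The isoform ratio differences ran for cKO from 0.80 to 1.89 (Cox6a2), -0.60 to -0.068 (Cox4i2), -0.42 to -0.0041 (Cox7a1) and -0.32 to 0.042 (Ndufa4l2), and for OE from -0.16 to 0.83, -1.84 to -0.77, -0.51 to -0.17 and -1.51 to -0.62.

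The log2 fold change of these named genes changed sign. Relative to the mean of the members, a sign only tells on which side of that mean a gene lay, so some members had to change sign. In cKO 44 of the 86 members were positive under that setting and 42 negative. For cKO with the acinar covariate the values were Cox4i1 0.0062, Cox5a 0.068, Cox6a1 0.0022, Cox6a2 -0.44, Cox7a1 0.38, Cyc1 0.11, Ndufa4 0.041, Ndufv1 0.041, Sdhb 0.052 and Uqcrc1 0.11. After median-of-ratios scaling they were Atp5a1 0.010, Atp5b 0.093, Cox4i1 0.26, Cox5a 0.28, Cox6a1 0.23, Cox7a2 0.14, Cyc1 0.17, Ndufa4 0.31, Ndufa4l2 0.090, Ndufv1 0.24, Sdhb 0.22, Uqcrc1 0.24, Uqcrfs1 0.078 and Uqcrh 0.13. Relative to the mean of the members they were Cox4i1 0.14, Cox5a 0.17, Cox6a1 0.12, Cox7a2 0.023, Cyc1 0.055, Ndufa4 0.20, Ndufa4l2 0.012, Ndufv1 0.12, Sdhb 0.10, Uqcrc1 0.13 and Uqcrh 0.017. For OE after median-of-ratios scaling they were Atp5b -0.063, Cox4i1 -0.15, Cox5a -0.45, Cox6a1 -0.058, Cox7a1 -0.10, Cox7a2 -0.14, Cyc1 -0.35, Ndufa4 -0.17, Ndufab1 -0.13, Ndufb1 -0.35, Ndufc2 -0.32, Ndufv1 -0.12, Sdhb -0.40, Uqcrc1 -0.012, Uqcrc2 -0.11 and Uqcrh -0.42. Relative to the mean of the members they were Cox5a -0.23, Cyc1 -0.13, Ndufb1 -0.13, Ndufc2 -0.094, Sdhb -0.17 and Uqcrh -0.19. Without Ctrl2 and Ctrl3 they were Cox5a -0.13, Cox6a2 -0.034, Cox7a1 -0.40, Cox8a -0.050, Cyc1 -0.20, Ndufa4 -0.13, Ndufab1 -0.32, Ndufb1 -0.66, Ndufc2 -0.79, Ndufs1 -0.16, Uqcrc2 -0.11 and Uqcrh -0.16, and with the study's 3 libraries Cox7a1 -0.094. Leaving out 1 library in OE, Cox5a ran from -0.015 to 0.16, Cox7a1 from -0.16 to 0.42, Ndufb1 from -0.14 to 0.48 and Ndufc2 from -0.23 to 0.62. Where a value changed, the cause was not tested.

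Samples with the same replicate number did not deviate together (r from -0.21 to 0.12), so the numbers were not taken as pairs. With the replicate block 9 members passed in cKO and 0 in OE, and with 4 pairs the isoform ratios could not go below p = 0.125 in an exact sign-flip test. FPKM kept no read numbers, so the depth behind low genes such as Cox7a1 is unknown.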
